A study of Mus musculus with 56 samples.

Results

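The genes described here encode UDP-glucuronosyltransferases (UGTs), a family of enzymes of phase II metabolism. All 10 members chosen by symbol (Ugt1a1, Ugt2a3, Ugt2b1, Ugt2b5, Ugt2b34, Ugt2b35, Ugt2b36, Ugt2b37, Ugt2b38 and Ugt3a2) were listed in the liver gene table, among 25279 genes analysed of 25415 listed. RNA came from the livers of 56 female wild-type C57BL/6J mice aged 9 weeks, which had spent 7 days under 12 h of light per day with food offered either in the light phase alone (daytime-restricted feeding, DRF) or in the dark phase alone (nighttime-restricted feeding, NRF, the reference regimen). Livers were collected every 4 h from ZT0 (lights on) to ZT24, with 4 mice in each of the 14 groups, so 28 libraries stand behind each regimen. The series asked how inverted feeding resets diurnal rhythms in tissues, and the question for this family is whether its daily rhythm followed the light cycle or the food.

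UGT enzymes sit in the membrane of the endoplasmic reticulum and join a sugar, usually glucuronic acid, to bilirubin, steroids, bile acids and drugs. The conjugates dissolve in water and leave the hepatocyte through export pumps into bile or blood. Ugt1a1 conjugates bilirubin, the Ugt2b subfamily is known for conjugating steroids and many drugs, and Ugt3a enzymes use sugars other than glucuronic acid. Their genes in liver are known targets of nuclear receptors, of the aryl hydrocarbon receptor and of the hepatocyte factor HNF1.

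In brief, 9 of the 10 members were rhythmic under DRF (37.9% of all genes were) and 5 under NRF (38.7%), and of the 5 rhythmic under both (22.2%), 4 had fitted peaks in the dark phase that lay within 4 h of each other. Among the 5, Ugt2b34 was the exception: its fitted peaks lay 8.94 h apart. The rhythm differed between regimens for Ugt2b34, Ugt2b35, Ugt3a2 and Ugt2a3, the last 2 with calls that several alternatives lost. No member passed the test of its mean over the day.

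The members lie in 3 places on the GRCm38.p6 assembly. Ugt1a1 (ENSMUSG00000089960) lies at chr1:88211959-88218997 on the plus strand, where 9 Ugt1a genes have separate first exons and the same last exons. The Ugt2 members lie in a cluster on chromosome 5 (Ugt2b34, ENSMUSG00000029260, at chr5:86889767-86906937, minus strand; Ugt2b1, ENSMUSG00000035836, at chr5:86916638-86926530, minus strand). Next to them lie Ugt2b35 (ENSMUSG00000035811, chr5:87000860-87013275, plus strand) and Ugt2b36 (ENSMUSG00000070704, chr5:87065927-87092555, minus strand). The minus strand also holds Ugt2b5 (ENSMUSG00000054630, chr5:87124960-87140318) and Ugt2b37 (ENSMUSG00000057425, chr5:87240493-87254804). Last among the members in the cluster come Ugt2a3 (ENSMUSG00000035780, chr5:87324972-87337195, minus strand) and Ugt2b38 (ENSMUSG00000061906, chr5:87409942-87424203, minus strand). Ugt3a2 (ENSMUSG00000049152) lies at chr15:9335550-9370955 on the plus strand.

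Promoter sequence was at hand for 9 of the 10 members, as windows of 250 bases before and 50 bases after the RefSeq start of each gene (GRCm38.p6). The 7 Ugt2b members carried 1 match each to a form of the HNF1 site (GTTA, any base, A, any 2 bases, then TTAAC), between 61 and 89 bases before the start and on the strand of the gene. This motif was written down after the promoters had been read, and of all 32851 promoter windows 30 (0.0913%) held a match on either strand. The stretches below are aligned on that match, which is in capitals; they are shown because Ugt2b34 and Ugt2b35, whose rhythms differed between regimens, share it with Ugt2b1, Ugt2b5 and Ugt2b36, for which no such difference passed the test. All are written 5′ to 3′ on the strand of the gene.
Ugt2b34 (chr5:86906961-86907030): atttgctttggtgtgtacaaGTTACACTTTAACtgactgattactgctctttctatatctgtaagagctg
Ugt2b35 (chr5:87000770-87000839): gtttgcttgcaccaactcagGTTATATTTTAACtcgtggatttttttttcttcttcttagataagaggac
Ugt2b1 (chr5:86926543-86926612): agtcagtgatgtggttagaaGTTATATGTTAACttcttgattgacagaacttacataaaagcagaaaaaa
Ugt2b36 (chr5:87092570-87092639): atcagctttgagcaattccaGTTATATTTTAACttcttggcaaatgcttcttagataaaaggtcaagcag
Ugt2b5 (chr5:87140352-87140421): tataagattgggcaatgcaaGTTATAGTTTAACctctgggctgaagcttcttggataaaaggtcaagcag
Ugt2b37 (chr5:87254817-87254886): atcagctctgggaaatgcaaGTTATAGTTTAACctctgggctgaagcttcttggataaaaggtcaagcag
Ugt2b38 (chr5:87424218-87424287): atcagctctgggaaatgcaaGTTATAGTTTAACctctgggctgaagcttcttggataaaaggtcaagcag

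The stretches of Ugt2b37 and Ugt2b38 were the same in all 70 bases. The stretch of Ugt2b34 shared from 34 (Ugt2b1) to 40 (Ugt2b36) of its 70 bases with the others, counted without gaps. The nuclear receptor half-site AGGTCA, present in 16.3% of all windows, was found in 5 members (Ugt2b5, Ugt2b35, Ugt2b36, Ugt2b37 and Ugt2b38). In Ugt2b35 it lay 215 bases before the start, and in the other 4 between 22 and 39 bases before it. The D-box form TTANGTAA, the site of DBP, TEF and HLF, was found in Ugt2b1 alone among the members and in 2.32% of all windows. The E-box CACGTG, present in 7.15%, was found in none of the 9. Both strands were searched for every motif. The whole upstream stretches of Ugt2b34 and Ugt2b35 hold the following letters.
Ugt2b34 (chr5:86906938-86907187, minus strand): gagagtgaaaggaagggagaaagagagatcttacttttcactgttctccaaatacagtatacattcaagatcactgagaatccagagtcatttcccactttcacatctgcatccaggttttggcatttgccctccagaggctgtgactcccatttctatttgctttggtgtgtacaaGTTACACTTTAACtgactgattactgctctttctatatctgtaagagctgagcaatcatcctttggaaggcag
Ugt2b35 (chr5:87000610-87000859, plus strand): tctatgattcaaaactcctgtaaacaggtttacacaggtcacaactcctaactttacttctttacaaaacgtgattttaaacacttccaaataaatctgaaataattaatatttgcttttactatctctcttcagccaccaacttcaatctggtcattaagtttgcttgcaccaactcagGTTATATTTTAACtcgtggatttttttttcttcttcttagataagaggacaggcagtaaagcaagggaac

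Levels are given as scaled counts, which are the whole counts rebuilt from the deposited values divided by 1 factor per library; the scaled counts of a library sum to between 849199 and 1062790. Each member had at least 1970 rebuilt counts in every library, but rebuilt counts exceed the reads that the study states for a library, so they do not give the counting error. Within a group, libraries correlated at 0.965 to 0.990 across genes. Replicate 3 of NRF ZT16 had the lowest mean correlation with its group (0.967), and 9 of the 10 members were lowest of their group in it. Among the marker genes, the summed hepatocyte level ran from 38509 to 64329 scaled counts per kb over the libraries, with 7 of 8 listed genes tested and none at 0. Summed levels over 7 genes ran from 249 to 551 for Kupffer cell markers, and of 7 kidney or gut markers 3 were in the table. The 7 periportal markers had a mean summed level of 5527 under DRF and 4536 under NRF, and the 5 erythroid markers one of 1542 and 989. The part of either in the results was not tested. In bulk liver, fewer cells of a type and less RNA per cell cannot be told apart.

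Per kilobase of exon, the level of the members spanned from 453 ± 70.4 for Ugt2b5 to 5.08 ± 2.28 for Ugt2b37 (mean ± SD, n = 56 libraries). Below Ugt2b5 came Ugt3a2 (301 ± 38.4), Ugt1a1 (201 ± 63.2) and Ugt2a3 (158 ± 20.1). Ugt2b1 followed at 100.52 ± 20.4 and Ugt2b34 at 93.2 ± 16.7. Ugt2b36 stood at 59.9 ± 8.67, Ugt2b35 at 36.8 ± 7.50 and Ugt2b38 at 36.7 ± 4.21. The neighbours Ugt1a1 and Ugt2a3, Ugt2b1 and Ugt2b34, and Ugt2b35 and Ugt2b38 differed by less than the larger of their SDs. Every member except Ugt2b37 stood at the 95.8th percentile or higher among all genes per kilobase, and Ugt2b37 stood at the 80.7th. Reads can be shared between copies: of the stretches of 100 bases in its transcripts, 24.7% in Ugt2b5 and 24.2% in Ugt2b38 also occurred in another Ugt2b gene, 57.2% in Ugt1a1 occurred in other Ugt1a genes, and at most 1.06% did so in each of the other 7.

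**Figure D1:**
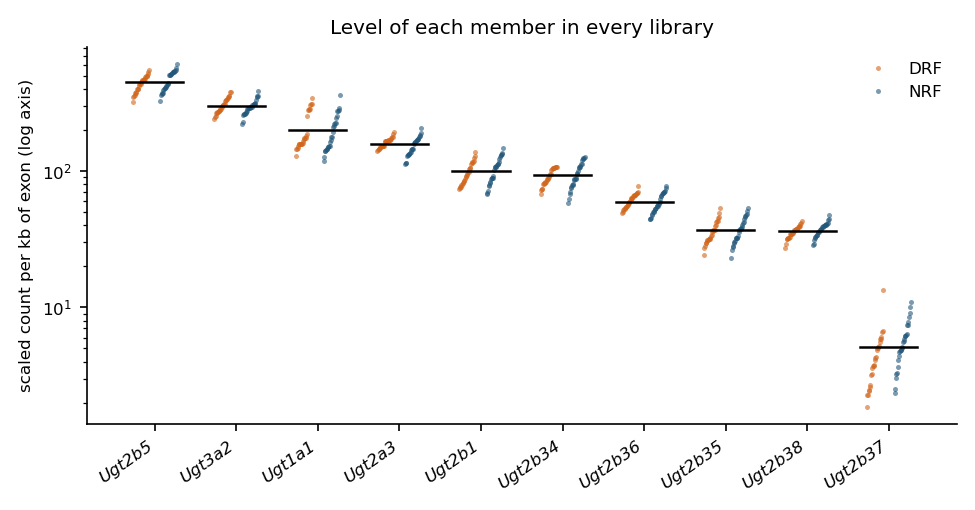
Scaled count per kilobase of exon (log axis) of each member in all 56 libraries, with 1 point per library spread sideways in order of value, DRF in orange, NRF in blue and the mean as a black bar. Ugt2b5 stands highest at a mean of 453 and Ugt2b37 lowest at 5.08.

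The comparison that addresses the question directly is the 24-h rhythm within each regimen. Under DRF 9 of the 10 members were rhythmic, the exception being Ugt1a1 (adjusted p = 0.225), where 37.9% of all genes were. The strongest by test were Ugt2b34 (adjusted p = 1.5e-07) and Ugt3a2 (adjusted p = 3.49e-07). Under NRF 5 members were rhythmic (Ugt2a3, Ugt2b1, Ugt2b5, Ugt2b34 and Ugt2b36), where 38.7% of all genes were. Ugt2b34 again had the smallest adjusted p (1.75e-07), followed by Ugt2a3 (0.000181). These 5 were thus rhythmic under both regimens, as were 22.2% of all genes. The weakest calls were Ugt2b37 under DRF (adjusted p = 0.0326) and Ugt2b5 under NRF (adjusted p = 0.0376). The first was lost with replicate 1, 3 or 4 left out (adjusted p = 0.0605, 0.214 and 0.263), and the second with replicate 1, 2 or 4 left out (0.132, 0.107 and 0.182). The first was also lost without the ZT24 (0.0714) or the ZT0 libraries (0.133). Both were lost in a Kendall rank test (adjusted p = 0.0580 and 0.0556). Ugt2a3 under DRF was lost without replicate 1 (0.117) or 3 (0.0885), and Ugt2b38 under DRF without replicate 1 (0.0946) or 4 (0.0877) and on the deposited values (0.267). Without replicate 3 of NRF ZT16, Ugt3a2 was rhythmic under NRF as well (adjusted p = 0.00809). The test was limma on log2(scaled count + 1) with a cosine of 24 h, adjusted by Benjamini-Hochberg over all genes.

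**Figure D2:**
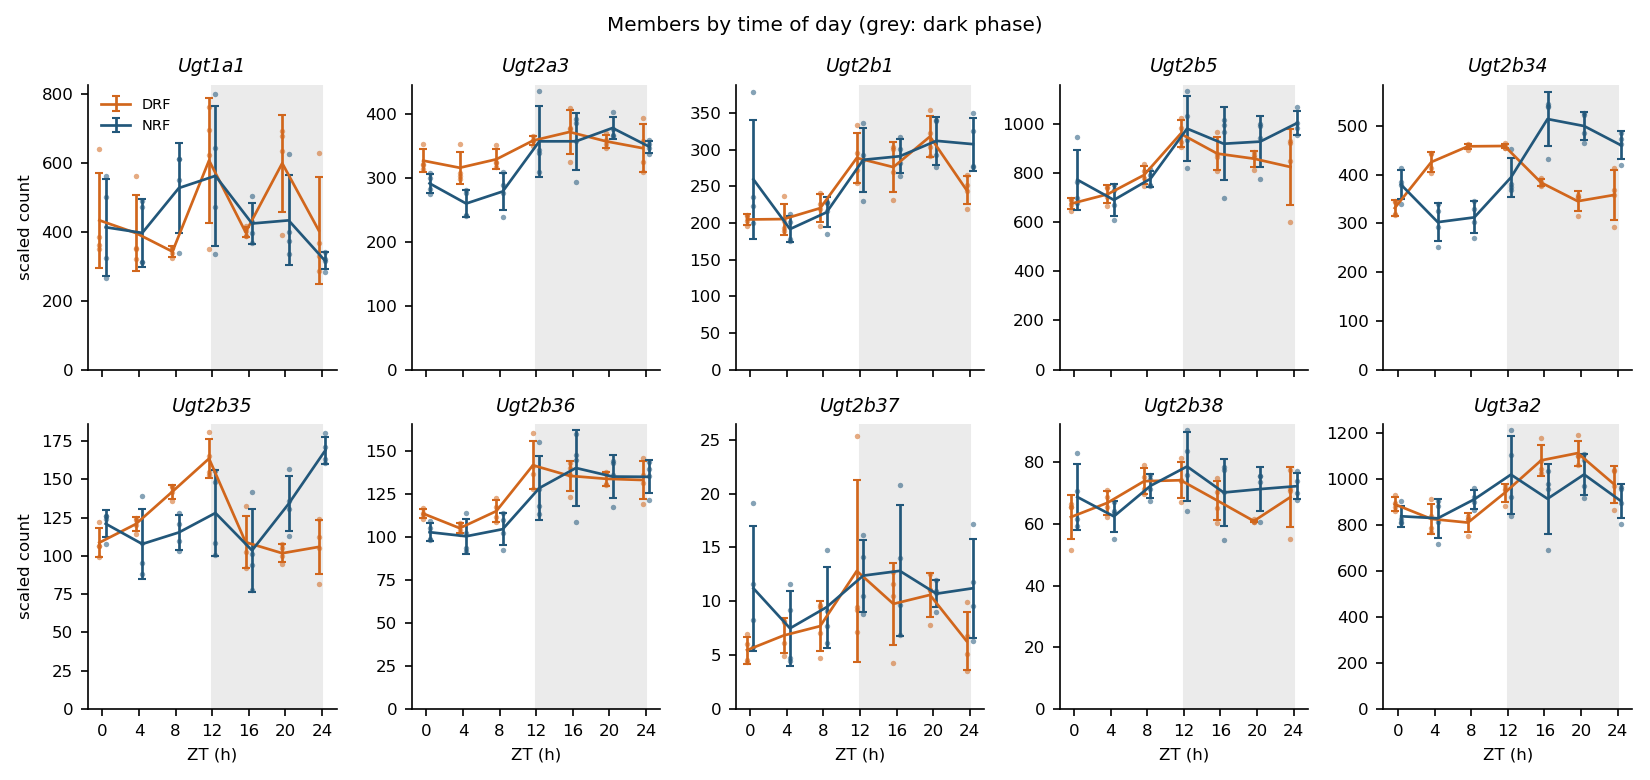
Scaled count of each member by time of day (ZT in hours), with 1 point per mouse, lines joining group means and bars of ± 1 SD (n = 4 mice), DRF in orange and NRF in blue, and the dark phase shaded. For Ugt2b34 the DRF points lie above the NRF points at ZT4 and ZT8 and below them from ZT16 to ZT24, while in Ugt2b36 the means of both regimens are lowest at ZT4.

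The fitted peaks of Ugt2a3, Ugt2b1, Ugt2b5 and Ugt2b36 moved little between regimens. Those of Ugt2b36 fell at ZT16.3 ± 0.678 h (SE) under DRF and ZT17.2 ± 0.734 h under NRF, which puts the shift at -0.927 h (95% interval -2.93 to 1.08 h). For Ugt2a3 the peaks fell at ZT16.4 and ZT17.3, with a shift of -0.928 h (-3.02 to 1.17 h). For Ugt2b1 they fell at ZT16.5 and ZT18.2 (shift -1.72 h, -3.67 to 0.223 h), and for Ugt2b5 at ZT14.6 and ZT17.02 (shift -2.45 h, -5.20 to 0.306 h). Negative shifts mean an earlier peak under DRF, and the intervals of all 4 exclude the 12 h by which food was moved. No interval excluded 0. Among all 5621 genes rhythmic under both regimens, 22.6% had shifts of up to 4 h and 52.3% had shifts over 8 h, against 4 and 1 of the 5 members. In Ugt2b36, the 4 libraries of DRF ZT4 lay at 103.9, 108.4, 101.7 and 106.8, and those of NRF ZT4 at 102.5, 113.9, 91.73 and 93.73. At ZT16 the DRF libraries lay at 140.1, 123.4, 142.8 and 136.2 and the NRF libraries at 159.7, 147.7, 108.7 and 144.6. The regimens overlapped at both times, and within DRF every library of ZT16 was above every library of ZT4.

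Fitted swing here means the amplitude of the cosine, from its mean to its peak and not from trough to peak. Of Ugt2a3, Ugt2b1, Ugt2b5 and Ugt2b36, Ugt2b1 had the largest fitted swing under NRF, at 21.4% ± 4.90 (SE) of its mean, with 20.7% ± 3.59 under DRF. Its group means ran from 205 at ZT0 and ZT4 to 318 at ZT20 under DRF and from 192 at ZT4 to 312 at ZT20 under NRF. For Ugt2a3 the fitted swing was smaller under DRF (7.73% ± 1.86) than under NRF (17.7% ± 3.20), and the amplitude differed by -31.1 scaled counts (95% interval -55.6 to -6.56). At ZT4 its DRF libraries lay at 308.6, 303.3, 298.5 and 353.7 and its NRF libraries at 280.8, 276.3, 241.2 and 241.7. At ZT8 they lay at 316.5, 325.4, 323 and 352.3 against 277.2, 289.5, 309.4 and 239.6. At both times every DRF library was above every NRF library.

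**Figure D3:**
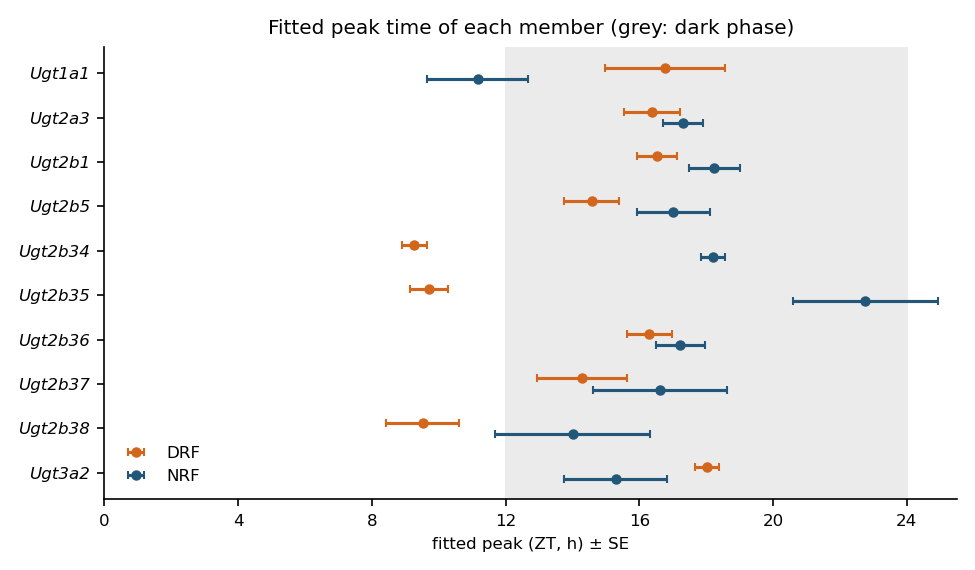
Fitted peak time (ZT in hours, ± SE of the cosine fit to 28 libraries) of each member under DRF (orange) and NRF (blue), with the dark phase shaded. Ugt2b34 (ZT9.27 and ZT18.2) and Ugt2b35 (ZT9.71 and ZT22.8) have the peaks farthest apart, and the NRF peaks of Ugt2b35 and Ugt2b38 have the widest errors.

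Ugt2b34, a member of the steroid-conjugating subfamily, had a trough and a peak at different hours in the 2 regimens. Under DRF its libraries lay at 319.1, 345.1, 316.7 and 346.1 at ZT0 and at 404.2, 441.8, 413.7 and 445 at ZT4. They then lay at 451.7, 461.1, 458.5 and 462.4 at ZT8 and at 455.3, 455.7, 460.4 and 465 at ZT12, the last hours with food. At ZT16 they were down to 392.9, 377.7, 378.7 and 386.1. This was a plateau in the second part of the light phase with little spread between mice. At ZT20 the libraries lay at 358.4, 354.5, 315.9 and 354.1, and at ZT24 at 358, 292, 414.5 and 369.7. Under NRF the libraries lay at 413.8, 379.3, 384.4 and 340.5 at ZT0. They then lay at 325.6, 340.4, 292.7 and 252.2 at ZT4 and at 328.7, 346.7, 303.6 and 271.1 at ZT8. The NRF trough thus fell where the DRF level was near its height. At ZT12 they lay at 369.3, 375, 380.1 and 453.6, and at ZT16 at 545.3, 540, 431.9 and 540.6. At ZT20 they lay at 466.1, 485.4, 522.1 and 526.8, and at ZT24 at 485.8, 474.4, 463.5 and 420. At ZT16, ZT20 and ZT24 no DRF library reached the lowest NRF library of the same hour.

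Fitted peaks of Ugt2b34 fell at ZT9.27 ± 0.365 h under DRF and ZT18.2 ± 0.356 h under NRF, a shift of -8.94 h with a 95% interval of -9.97 to -7.92 h. Its swing was 16.97% ± 1.60 of the mean under DRF and 28.3% ± 3.04 under NRF, and the amplitude differed by -47.2 scaled counts (-74.9 to -19.6). The rhythm difference between regimens had an adjusted p of 1.13e-13 (limma), with adjusted p from 3.6e-15 to 8.34e-05 over the 14 alternative settings. On the deposited, log-compressed values the shift was smaller, at -5.33 h, and the DRF rhythm did not pass (adjusted p = 0.0628).

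Ugt2b35 was rhythmic under DRF, with its highest group at the end of the light phase. Its libraries lay at 99.5, 106.3, 122 and 106.5 at ZT0 and at 144.8, 135.7, 141.5 and 145.7 at ZT8. They stood at 154.9, 165.2, 180.8 and 153 at ZT12 and at 108.6, 92.14, 132.4 and 102.4 at ZT16. So all 4 libraries of ZT12 were above all 4 of ZT16. Under NRF the highest group was ZT24, with 160.8, 162.9, 180.4 and 170.9, and the libraries of the same hour under DRF lay at 105.3, 81.76, 123.8 and 112.4. At ZT0, the other end of the cycle, the NRF libraries lay at 107.7, 126.2, 125.8 and 124. The NRF cosine did not pass (adjusted p = 0.283), and its fitted peak of ZT22.8 had an SE of 2.16 h, beside 0.575 h for the DRF peak at ZT9.71. The rhythm difference passed with an adjusted p of 0.000222 (limma), and over the 14 alternatives this ranged from 4.24e-05 to 0.0159.

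The other 2 members with a rhythm difference were Ugt3a2 (adjusted p = 0.0272) and Ugt2a3 (adjusted p = 0.0477), so 4 of 10 members passed where 38.9% of all genes did. Ugt3a2, a UGT that uses sugars other than glucuronic acid, had a fitted peak at ZT18.0 ± 0.359 h under DRF. Under NRF its rhythm did not pass (adjusted p = 0.171), and the fitted peak was ZT15.3 ± 1.53 h. Its swing was 16.9% ± 1.82 of the mean under DRF and 7.92% ± 3.24 under NRF, an amplitude difference of 87.3 scaled counts (95% interval 17.9 to 157). Its DRF libraries lay at 825.1, 825.6, 752.4 and 841.4 at ZT8 and at 1100, 1190, 1101 and 1062 at ZT20, and the NRF libraries at 921.2, 963.3, 901.5 and 863.8 and at 971.3, 917.8, 1109 and 1084. These hours held the lowest and the highest DRF group mean. The 2 NRF groups overlapped there, and the 2 DRF groups did not. The lowest and highest NRF group means were at ZT4 and ZT20. Those NRF groups did not overlap either (highest library 906.6 at ZT4, lowest 917.8 at ZT20). Ugt3a2 lost its call on the deposited values (adjusted p = 0.547) and without replicate 1, 2 or 3 (0.144, 0.161 and 0.0754). Ugt2a3 lost its call on the deposited values (0.468), without replicate 1, 2 or 4 (0.0884, 0.215 and 0.263) and with the length trend removed (0.0583).

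At matched clock times, 8 of 70 comparisons of a member between regimens passed, and in all 8 the groups did not overlap. In 8 further comparisons the groups did not overlap either and the test did not pass. Over all genes and times, 18.1% of such comparisons had groups that did not overlap. Ugt2b34 was 1.41-fold higher under DRF at ZT4 (log2 difference 0.50 ± 0.08 SE, adjusted p = 1.29e-05) and 1.47-fold higher at ZT8 (0.56 ± 0.08, adjusted p = 4.13e-06). It was lower at ZT16 (-0.41 ± 0.08, adjusted p = 0.000359), at ZT20 (-0.53 ± 0.08, adjusted p = 6.56e-06) and at ZT24 (-0.37 ± 0.08, adjusted p = 0.00126). The last was lost without replicate 2 (0.0846) and on the deposited values (0.0817). Ugt2a3 was higher at ZT4 (0.28 ± 0.08, adjusted p = 0.0127) and ZT8 (0.24 ± 0.08, adjusted p = 0.0470), and lost these calls in 4 of 12 alternatives each. Ugt2b35 was lower at ZT24 (-0.68 ± 0.14, adjusted p = 0.000263).

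By time, 2 of the 10 members passed at ZT4 (20.5% of all genes), 2 at ZT8 (13%), 1 at ZT16 (15.2%), 1 at ZT20 (13.8%) and 2 at ZT24 (14.1%). None passed at ZT0 or ZT12 by limma, where 16.1% and 15.2% of all genes did and where 3 and 2 members had an unadjusted p under 0.05. A difference at any of the 7 times was found in 3 members, Ugt2b34 (adjusted p = 9.55e-12), Ugt2b35 (7.59e-05) and Ugt2a3 (0.0126), against 42.7% of all genes. Ugt2a3 lost this call without replicate 1 (0.0864) or 4 (0.0734), on the deposited values (0.105) and with the length trend removed (0.0549). In the mean over the day no member differed (6.82% of all genes did), and 2 members had an unadjusted p under 0.05. The largest differences in the mean were -0.30 ± 0.13 for Ugt2b37 (adjusted p = 0.188) and 0.10 ± 0.04 for Ugt2a3 (adjusted p = 0.0951) on the log2 scale. For Ugt2b34 the regimens had nearly the same mean (0.00 ± 0.04 on the log2 scale, adjusted p = 0.996).

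Set against time from food, with each DRF group compared with the NRF group 12 h away and ZT0 and ZT24 of a regimen averaged, 7 of the 10 members differed at some position (41% of all genes did): Ugt2b1 (adjusted p = 5.77e-07), Ugt2b36 (6.94e-07), Ugt2a3 (1.86e-06), Ugt2b5 (0.000105), Ugt3a2 (0.000158), Ugt2b34 (0.000183) and Ugt2b37 (0.0423). Ugt2b37 lost this call with any replicate number left out (0.0754 to 0.177). For Ugt2b35 it did not pass (adjusted p = 0.146), nor for Ugt2b38 (0.0630) or Ugt1a1 (0.0764). These comparisons use the same libraries as those at matched clock times.

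At 4 h after the end of the food phase, DRF was higher in 6 members, a direction in which 9.55% of all genes passed. They were Ugt2b1 (0.52 ± 0.12, adjusted p = 0.00246), Ugt2a3 (0.51 ± 0.08, adjusted p = 2.5e-05), Ugt2b36 (0.43 ± 0.09, adjusted p = 0.000453), Ugt3a2 (0.39 ± 0.09), Ugt2b34 (0.35 ± 0.08) and Ugt2b5 (0.35 ± 0.11). That position is ZT16 under DRF, in the dark, and ZT4 under NRF, in the light. At 4 h into the food phase, ZT4 under DRF and ZT16 under NRF, 4 members were lower under DRF, where 5.87% of all genes were. They were Ugt2b1 (-0.50 ± 0.12), Ugt2b36 (-0.40 ± 0.09), Ugt2b5 (-0.35 ± 0.11) and Ugt2b34 (-0.27 ± 0.08). Ugt2b34 thus differed at matched clock times and at matched times from food. At the start of the food phase 2 members were lower under DRF (3.11% of all genes were), Ugt2b5 (-0.40 ± 0.09) and Ugt2b37 (-0.97 ± 0.31). At 8 h into it 2 were lower (5.14% of all genes were), Ugt2b1 (-0.50 ± 0.12) and Ugt3a2 (-0.33 ± 0.09). At its end 1 was higher (2.68% of all genes were), Ugt2b36 (0.26 ± 0.08). At 8 h after it 4 were higher (7.91% of all genes were), Ugt2b1 (0.57 ± 0.12), Ugt2a3 (0.36 ± 0.08), Ugt2b36 (0.36 ± 0.09) and Ugt3a2 (0.29 ± 0.09). Of these 19 calls at single positions, 7 passed in 12 of 12 alternatives: Ugt2a3, Ugt2b1 and Ugt2b36 at 4 h and 8 h after the food phase, and Ugt2b1 at 4 h into it. The other 12 were lost in 1 to 5 alternatives each, the most for Ugt2b37 at the start (adjusted p up to 0.306).

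**Figure D4:**
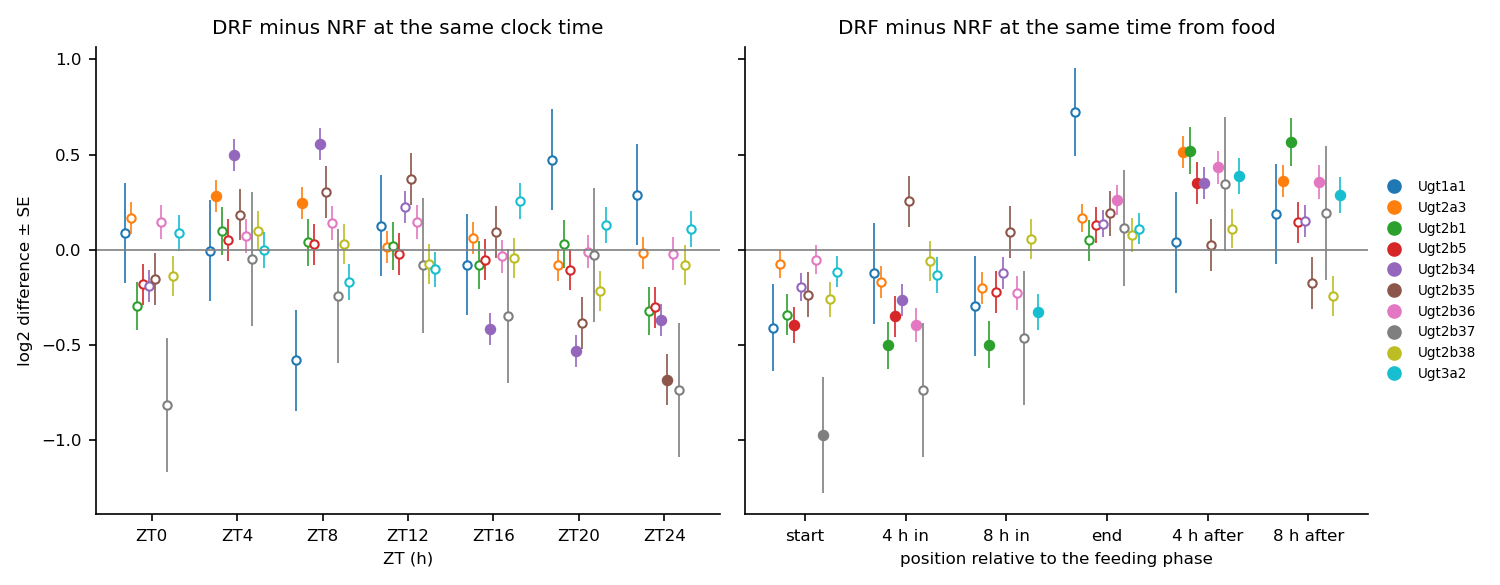
Log2 difference DRF minus NRF (± SE, 4 libraries a group, or 8 where ZT0 and ZT24 were averaged) of each member at the same clock time (left, ZT in hours) and at the same time from food (right, position in the feeding phase), filled where the adjusted p passed. On the left the filled points belong to Ugt2a3, Ugt2b34 and Ugt2b35, and on the right filled points lie below 0 from the start of the food phase to 8 h into it and above 0 from its end on.

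ZT0 and ZT24 are the same clock hour. Under DRF no member differed between them by limma (3.09% of all genes did), with 3 members at an unadjusted p under 0.05. Under NRF 5 members were higher at ZT24 (2.32% of all genes were higher): Ugt2b35 (0.48 ± 0.14, adjusted p = 0.0210), Ugt2b36 (0.39 ± 0.09, 0.00411), Ugt2b5 (0.39 ± 0.11, 0.0191), Ugt2b34 (0.28 ± 0.08, 0.0288) and Ugt2a3 (0.26 ± 0.08, 0.0464). Without replicate 1, Ugt2a3, Ugt2b34 and Ugt2b35 lost this call (adjusted p = 0.115, 0.0707 and 0.0871). Without replicate 3, Ugt2a3, Ugt2b5 and Ugt2b34 lost it (0.0886, 0.0531 and 0.0799). All 5 lost it without replicate 2 and without replicate 4. In Ugt2b35 the 2 groups of the same clock hour thus differed 1.39-fold. Without the ZT24 libraries the rhythm difference was called in 4 members, and without the ZT0 libraries in 3, Ugt2a3 being the one lost (adjusted p = 0.0558).

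Ugt1a1, the bilirubin enzyme, varied more between libraries of a group than the other well-expressed members, with a median coefficient of variation of 26.4% against 6.05% for Ugt2b34. At DRF ZT12 its mean was 608, with libraries from 351 to 764. It passed neither rhythm test, the mean test nor the feeding-aligned test, though on the deposited values its DRF rhythm passed (adjusted p = 0.0330). Its NRF rhythm (adjusted p = 0.0589) passed in 6 of 16 alternatives, the summed Ugt1a genes given below being among the 6. Ugt1a1 itself passed without replicate 1 (0.00781) and on the deposited values (0.0432), among others, and reached 0.435 without replicate 4. Its last exons are common to 9 Ugt1a genes, so that a read there has no single owner, and its share of the summed counts of these genes moved between 4.77% and 18.8% over the libraries. Within groups, the median coefficient of variation of the 9 genes ran from 19.0% for Ugt1a9 to 120% for Ugt1a2. The sum of the 9 genes had a median coefficient of variation of 15.9% within groups. Its group means ran from 4054 ± 1275 (SD) at NRF ZT8 to 7770 ± 708 at DRF ZT16, a span of 1.92-fold beside 1.93-fold for Ugt1a1 alone. With that sum in place of Ugt1a1, an alternative added after the values were seen, the mean over the day was higher under DRF by 0.28 on the log2 scale (adjusted p = 0.0170), and the NRF rhythm had an adjusted p of 0.0461. Ugt1a9 had the highest median of the 9 genes (1959 scaled counts), and its rebuilt counts were too large to be judged whole.

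Ugt2b37 and Ugt2b38 share promoter letters and some transcript sequence with Ugt2b5. Ugt2b38 peaked at ZT9.52 ± 1.09 h under DRF, with a swing of 8.48% ± 2.35, and its NRF rhythm did not pass. Ugt2b37, the lowest member, peaked at ZT14.3 ± 1.34 h under DRF, and within groups its median coefficient of variation was 39.2%. At DRF ZT12 its libraries ran from 7.20 to 25.4, and replicate 4 alone stood above 9.50.

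Across the 14 group means on the log2 scale, Pearson's r between members was highest for Ugt2a3 and Ugt2b36 (0.91) and for Ugt2b1 and Ugt2b5 (0.90), and Ugt2b35 and Ugt3a2 stood at -0.20. Of 13731 other genes, those most like Ugt2b34 were Acsl4 (0.95), Prmt3 (0.94) and Sgpp1 (0.94). Those most like Ugt2b36 were Slc35a3 (0.98), Erap1 (0.96) and Lypla1 (0.95). Spin1 was the nearest gene both to Ugt2b1 (0.96) and to Ugt2b5 (0.89), and Agmo to Ugt2a3 (0.94). The nearest to Ugt2b35 was Mcm6 (0.87), to Ugt3a2 Atp6ap2 (0.94), to Ugt2b37 Gpc4 (0.92), to Ugt2b38 Dsg2 (0.83) and to Ugt1a1 B4galt3 (0.83). All points share libraries and their scaling, and these values are descriptions of n = 14 groups.

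The genes that feed the enzymes were listed by role. Of 11 genes that make or import UDP-glucuronic acid, 9 were rhythmic under DRF and 7 under NRF, and the rhythm differed in 8, beside 37.9%, 38.7% and 38.9% of all genes. All 7 that were rhythmic under both regimens shifted by more than 4 h, 6 of them by more than 8 h, as did 52.3% of all genes rhythmic under both. Slc35b1, a nucleotide exchanger of the endoplasmic reticulum, peaked at ZT9.26 under DRF and ZT21.0 under NRF (rhythm difference adjusted p = 1.07e-12). Nme1, a nucleoside diphosphate kinase, peaked at ZT13.0 and ZT21.0 (adjusted p = 2.63e-11).

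Of 11 transporters of the conjugates and their precursors, the rhythm differed in 10 (38.9% of all genes), and in the mean under DRF 5 were higher (4.13% of all genes) and 1 lower (2.7%). None of the 7 rhythmic under both regimens stayed within 4 h. Abcb1a, a drug export pump, peaked at ZT3.55 under DRF and ZT13.7 under NRF (adjusted p = 1.66e-13), and Slc10a1, the bile acid importer, at ZT23.1 and ZT12.5 (adjusted p = 1.85e-10). Of 19 tested regulators of UGT genes, the rhythm differed in 16 (38.9% of all genes), and of 11 rhythmic under both regimens 9 shifted by more than 8 h and none stayed within 4 h. Dbp, a clock-output factor that binds the D-box, peaked at ZT24.0 under DRF and ZT10.2 under NRF (adjusted p = 2.35e-23), and Tef, its relative, at ZT0.446 and ZT12.6 (adjusted p = 1.28e-22). Other lists held genes rhythmic under both regimens that stayed within 4 h. They were 3 of 4 hepatocyte markers and 2 of 6 periportal markers. The pericentral markers, the cholangiocyte markers and the glucuronate and ascorbate branch each held 1 of 3. Of the 8 induced targets listed further below 1 did so, and of 2 sinusoidal endothelium markers 0. The lists of other UGT genes, stellate markers and kidney or gut markers each held 0 of 1. The median mean difference was 0.14 for the supply list, 0.11 for the transporters, 0.04 for the regulators and 0.01 for the members, beside 0.00 over all genes (log2).

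**Figure D5:**
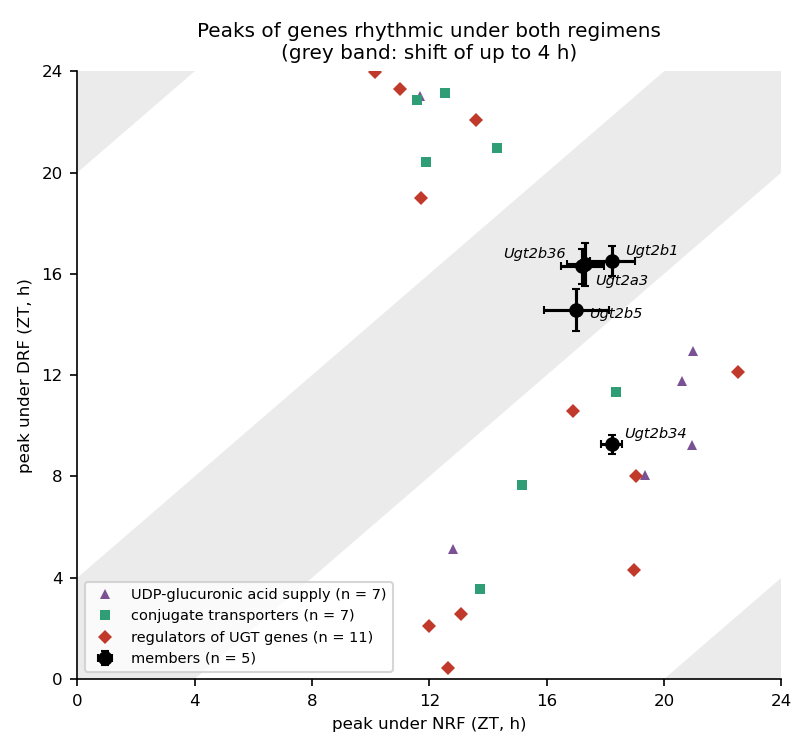
Fitted peak under DRF against fitted peak under NRF (both ZT in hours) for genes rhythmic under both regimens, with members in black (± SE) and genes of the supply, transporter and regulator lists in colour, and a grey band for shifts of up to 4 h. Of the 5 members, 4 lie in the band and Ugt2b34 outside it, and none of the 25 genes of the 3 lists lies in it. Other lists, some with genes that stayed within 4 h, are not drawn.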

How the data were processed

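Liver RNA of 56 mice was profiled by strand-specific RNA-seq (the protocol describes ribosomal RNA removal, the molecule label polyA RNA), in 14 groups of 4 (28 libraries per regimen). Per the labels, the authors used CASAVA 1.8 and featureCounts 1.5.0-p3 on mm10 (GRCm38.p6) and the aligner is not given in the sources used here. The deposited gene values, named TPM, are treated as a score: the authors' value times exon length equals a·ln(1 + f·k) with k whole. Curves fitted on 12147 genes gave whole counts (within 0.05) in 96.0% or more of counts up to 100 in 12100 genes left out, where chance gives 10%. The members are deeper: 4 were whole within 0.05 in every library, and 6 were judged within 0.2, Ugt3a2 in 54 of 56 libraries (24 within 0.05). Scaled counts f·k replaced the linear values planned, with 304 to 723 whole counts per scaled unit; whether k counts sequenced fragments is not known. GENCODE M21 gave exon lengths; 136 listed genes were left out, and the minimum mean value of 0.1 removed 0. limma 3.58.1 (trend, R 4.3.3) tested log2(scaled count + 1), with Benjamini-Hochberg adjustment over 25279 genes at 0.05. Cosine fits to scaled counts gave peaks and intervals. The scripts were tested on simulated data. All members are described; of other lists, the 2 genes with the smallest adjusted p for the rhythm difference are named (Ugt1a9 and the mean differences of Ugt1a8 and Ugp2 were added after their values were seen), and for likeness the nearest 3. Members and lists were chosen with earlier results of these data known. Alternatives were other scalings (median of ratios and TMM), pseudocounts, filters, length correction, a replicate block, left-out libraries and a rank test. P-values of contrasts between groups rest on the spread between mice of a group. Those of the cosine fits rest on a residual that also holds departures from the cosine.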

Additional observations from a re-analysis of the deposited data

Results flagged for a closer look

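In 11 of 140 groups of 4 mice, 1 library of a member lay far from the other 3 by Dixon's test, where chance flags about 1 in 20. Ugt1a1 was high in replicate 1 of DRF ZT0 (640.6, the others 349.8 to 384.9) and of DRF ZT4 (562.7, the others 322.0 to 352.8). Ugt2b34 was low in replicate 3 of DRF ZT20 (315.9, the others 354.1 to 358.4) and of NRF ZT16 (431.9, the others 539.98 to 545.3), and high in replicate 4 of NRF ZT12 (453.6, the others 369.3 to 380.1). Ugt2b5 was also low in replicate 3 of NRF ZT16 (700.5, the others 967.5 to 1019). Ugt2b35 was low in replicate 1 of NRF ZT0 (107.7, the others 124.0 to 126.2). Ugt2b37 was high in replicate 4 of DRF ZT12 (25.4, the others 7.20 to 9.50). Ugt2b38 was low in replicate 1 of DRF ZT0 (51.5, the others 65.4 to 66.6) and in replicate 2 of NRF ZT20 (60.7, the others 73.5 to 75.7). Ugt3a2 was high in replicate 3 of NRF ZT0 (905.3, the others 811.0 to 826.7).

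The difference between DRF and NRF varied with the time of day, by the limma test of the rhythm difference, for Ugt2b34 (adjusted p = 1.13e-13), Ugt2b35 (0.000222), Ugt3a2 (0.0272) and Ugt2a3 (0.0477).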

How the results depend on the processing

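Of the 4 members with a rhythm difference, Ugt2b34 and Ugt2b35 passed in 14 of 14 alternatives, Ugt3a2 in 10 and Ugt2a3 in 7. No called difference of a member changed sign in these alternatives. On the values as deposited the rhythm difference was called in 2 members, ZT4, ZT8, ZT12 and ZT24 in 1 each, ZT24 against ZT0 in 4 members under DRF (1844 of all genes) and 8 under NRF (6050 of all genes), and 1 member had peaks over 8 h apart, in place of 2. With the length trend removed, 1 member was called at ZT4, 2 at ZT12, 2 at ZT20 and 1 for ZT24 against ZT0 under DRF, and 1314 of all genes for that contrast under NRF. With a mean scaled count of at least 1, 2 members each were called at ZT12, ZT16 and ZT20. Median-of-ratios scaling gave 1 at ZT12 and 2 at ZT20, and both TMM scaling and a pseudocount of 0.1 gave 2 at ZT20. For the mean over the day, 1 member was called without the ZT24 libraries and 1 with the summed Ugt1a genes. Where no number of all genes is given, these member counts stand without the background of their setting. The causes were not tested.

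With replicates left out, including replicate 3 of NRF ZT16 alone (added after seeing the data), the members called ranged from 2 to 4 for the rhythm difference, 0 to 1 at ZT0, 1 to 2 at ZT4, 1 to 2 at ZT8, 0 to 2 at ZT12, 1 to 2 at ZT20, 1 to 3 at ZT24 and 0 to 5 for ZT24 against ZT0 under NRF. Of all genes, calls ranged from 756 to 1565 for the mean, 3260 to 5456 at ZT4, 1976 to 3497 at ZT8, 2471 to 4097 at ZT12, 2248 to 3075 at ZT16, 2265 to 3696 at ZT20 and 2237 to 3760 at ZT24. For ZT24 against ZT0 they ranged from 119 to 976 under DRF and 160 to 2644 under NRF. No range over all genes is given for the rhythm difference or for ZT0, so those member counts stand without a background.

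Replicate numbers did not pair the mice: deviations of same-numbered libraries correlated at -0.375 to 0.304 (median 0.00497), and 16 of 56 libraries matched their own number best. With the replicate block, the rhythm difference was called in 3 members (Ugt2a3 at adjusted p = 0.0514), ZT12 in 1, ZT20 in 2 and ZT24 in 3. The shares of all genes called with the block are not given. The rebuilt values rest on a fitted curve, and their sums exceed the reads that the study states for a library, so no counting interval is given.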

Other observations

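Of 10 other UGT genes tested, 2 were rhythmic under DRF and 3 under NRF (37.9% and 38.7% of all genes). Ugt1a9 was higher under DRF in the mean over the day (log2 difference 0.42 ± 0.10 SE, adjusted p = 0.00436, limma) and Ugt1a8 lower (-0.48 ± 0.15, adjusted p = 0.0339). Both share their last exons with Ugt1a1. The rebuilt counts of Ugt1a9 were too large to be judged whole (within 0.2 in 34 of 56 libraries). Ugt1a8 was low, with a median scaled count of 3.72 and a median coefficient of variation of 51.5% within groups. Ugt1a8 peaked at ZT3.92 under DRF and ZT16.8 under NRF (rhythm difference adjusted p = 0.000465), and Ugt3a1 at ZT17.5 and ZT8.29 (adjusted p = 0.0234), though its NRF rhythm did not pass (0.837).

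Of 15 induced targets of CAR, PXR, AHR, NRF2 and PPARalpha, receptors and factors also known to act on UGT genes, 10 were higher and 0 lower in the mean under DRF (4.13% and 2.7% of all genes), with a median of 0.30 (log2) beside 0.00 over all genes. Por, the reductase that serves cytochrome P450 enzymes, peaked at ZT0.406 under DRF and ZT13.1 under NRF (adjusted p = 2.06e-23), and Gclc, an enzyme of glutathione synthesis, at ZT8.42 and ZT0.491 (adjusted p = 4.89e-14). Of 9 genes of the glucuronate and ascorbate branch, 3 were higher in the mean under DRF (4.13% of all genes) and the rhythm differed in 5 (38.9%). Xylb, a xylulose kinase, peaked at ZT0.410 under DRF and ZT12.5 under NRF (rhythm difference adjusted p = 1.57e-12), and Ugp2 at ZT23.0 and ZT11.7 (5.62e-09). Ugp2, which makes UDP-glucose and is also listed among the supply genes, was higher in the mean by 0.48 ± 0.06 (adjusted p = 1.54e-07).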
